A study of Mus musculus with 2 samples.

Results

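39 genes that mend DNA double-strand breaks and interstrand crosslinks were examined in mouse lung cancer cells labelled as before and after restoration of *Runx3*. They were taken as the rows of the deposited tables that carry a fixed set of gene symbols, and all 39 were found among the 23183 genes listed. 20 of them act in homologous recombination, 10 in the Fanconi pathway, 5 in end joining and 4 are checkpoint kinases.

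KPR- cells are immortalized and come from lung cancers of KPR L/F-TAM(-) mice, which carried *Runx3* flox/FSF, Flp ERT2, the Tomato* reporter and *p53* flox/flox, among other alleles, and were given Cre recombinase by adenovirus. How many lines or clones were used is not stated. By genotype both groups have lost p53 and the floxed *Runx3* allele, and they differ in whether the Frt-Stop-Frt cassette still silences the other. 4-hydroxytamoxifen (4-OHT) activates Flp ERT2, which removes the cassette and yields KPR restored cells. The labels name RUNX3 -/- and 0 h for the KPR- library, RUNX3 -/+ and 16 h for the KPR restored library, and 1 μM 4-OHT for both, so whether the KPR- cells also received the agent cannot be told from them. Each condition was sequenced as 1 library, and no difference below has a replicate check. 4-OHT, hours in culture and *Runx3* cannot be told apart.

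A double-strand break can be repaired by copying an intact sister chromatid, which is homologous recombination and works mainly in S and G2 phase, or by joining the ends directly, which works throughout the cell cycle. The Fanconi pathway unhooks strands that are crosslinked to each other and hands the resulting break to recombination. The kinases ATM and ATR sense breaks and stalled forks and halt the cycle through CHEK2 and CHEK1. Loss of recombination or Fanconi genes makes cells sensitive to crosslinking drugs and is a cause of inherited cancer risk.

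Levels are given in FPKM, the fragments of a transcript scaled to its length and to the depth of the library, so they can be compared between genes. A difference is the value of log2(FPKM + 0.005) in KPR restored less the KPR- value, and a gene is called lower or higher where it differs by 0.5 or more. Judged from the steps that whole fragments leave in low FPKM values, the KPR- library held about 21.8 M fragments and the KPR restored library about 22.4 M. From these depths and the longest transcript of each gene the number of fragments was estimated, with a 95% Clopper-Pearson interval for the log2 ratio. The interval covers counting error only, and not the variation between cultures. PCR copies were not separated from independent molecules.

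*Runx3* itself had 0.348 FPKM in KPR- against 0.349 in KPR restored, with about 28 and 29 fragments, a difference of 0.01 with an interval of -0.79 to 0.81. It does not check the labels, and KPR restored stands throughout for the library labelled so. *Trp53* had 2.12 and 2.17 FPKM, and *Cdkn2a* had 206 and 244 FPKM. The 10 epithelial markers summed to 6110 and 5369 FPKM. 6 of them averaged 1 FPKM or more, with differences from -0.73 for *Krt7*, at 1229 and 743 FPKM, to 0.13 for *Cdh1*, at 119 and 130 FPKM. The lung markers *Sftpc*, *Sftpb* and *Scgb1a1* were listed at 0 in both libraries and *Nkx2-1* had 0.0444 and 0.0216 FPKM. The 7 leukocyte markers summed to 3.13 and 6.79 FPKM, nearly all of it *Cd68*, and the 6 endothelial markers to 1.20 and 2.24 FPKM, mostly *Kdr*. The 9 fibroblast markers summed to 1790 and 1469 FPKM, of which *Vim* made 1777 and 1464 FPKM. *Col1a1* had 12.2 and 4.21 FPKM, whereas *Dcn* had 0.173 and 0.742 FPKM, with about 6 and 26 fragments, and *Pdgfra* had 0.273 and 0.363 FPKM. *Col1a2* had 0.0463 and 0.018 FPKM, *Col3a1* 0.0171 and 0 FPKM and *Pdgfrb* 0.0264 and 0.0171 FPKM. *Lum* and *Thy1* were listed at 0 in both libraries. *Ptprc*, which defines leukocytes, was listed at 0 in KPR- and 0.00892 FPKM in KPR restored. The part of these marker levels in the results below was not tested.

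Most of the repair genes had a lower level in KPR restored. In bulk libraries such as these, fewer cells of a kind and less RNA per cell cannot be told apart. 31 of the 39 had a difference below 0, as did 49.0% of the 11231 genes averaging 1 FPKM or more, and 8 had a difference above 0. The median difference was -0.27, against 0.01 over those 11231 genes. 13 genes were called lower, where 12.9% of all 23183 genes, 9.29% of those averaging 1 FPKM or more and 9.08% of the 8753 genes in the same range of mean FPKM were. 1 gene, *Rad52*, was called higher, where 13.8% of all genes, 12.1% of those averaging 1 FPKM or more and 12.3% of those in the range were. 0 members were lower or higher by 1 or more, where 6.59% and 7.01% of all genes were. Only 11231 of the 23183 genes averaged 1 FPKM or more, and the shares among these at a threshold of 1 were not computed. The FPKM of all members summed to 388 in KPR- and 322 in KPR restored. None of the 39 was listed at 0, and all had a mean FPKM over 1, from 1.56 for *Rad51b* to 46.6 for *Xrcc6*.

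**Figure D1:**
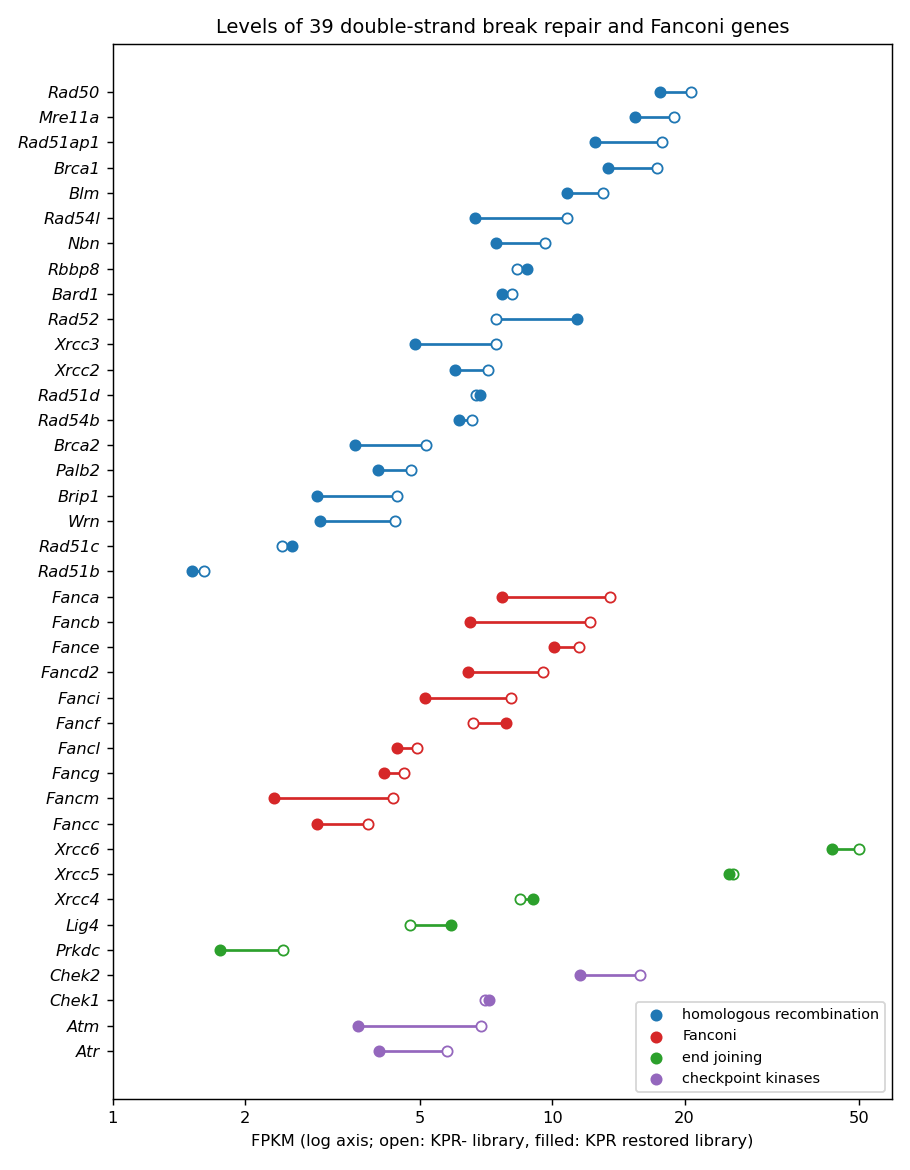
FPKM of the 39 genes in the KPR- library (open points) and the KPR restored library (filled points), 1 value per library, on a log axis and coloured by pathway. The filled point lies to the left of the open point for 31 genes, and *Xrcc6* and *Xrcc5* have the highest levels.

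The counting interval lay below 0 for 24 members and above 0 for 2, and it held 0 for 13. At this depth such intervals were common, lying below 0 for 29.7% and above 0 for 30.5% of the 13440 genes with at least 10 estimated fragments, and for 31.2% and 34.1% of the 8679 in the range of the members. Between 56 and 2398 fragments stood behind each value of a member, so the intervals of members with few fragments, such as *Rad51b*, were wide. By pathway, the median difference was -0.26 in homologous recombination, -0.47 in the Fanconi pathway, -0.48 among the checkpoint kinases and -0.03 in end joining. These medians rest on unequal numbers of genes, and no test was made between the pathways.

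**Figure D2:**
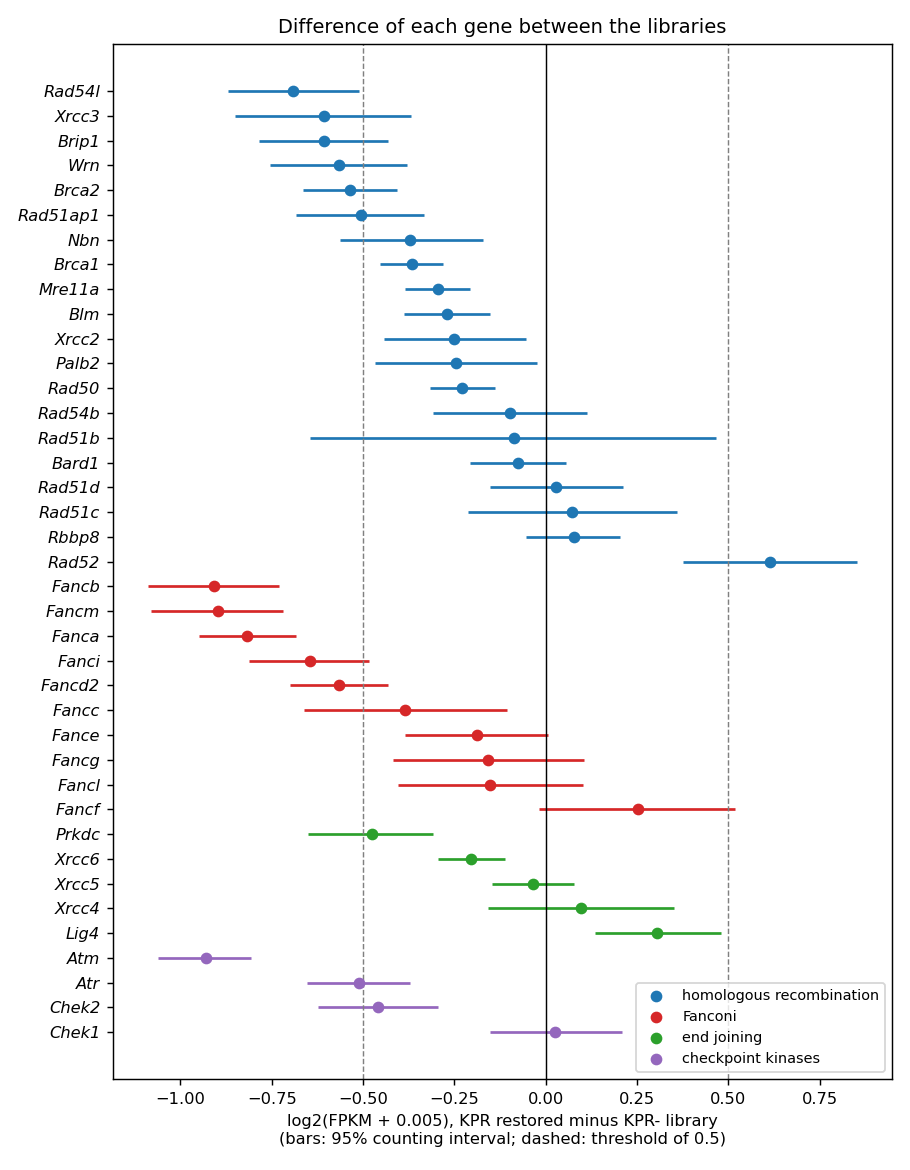
Difference of each gene in log2(FPKM + 0.005) between KPR restored and KPR-, with the 95% counting interval as a bar and the threshold of 0.5 as dashed lines. *Atm*, *Fancb* and *Fancm* lie farthest to the left at -0.93, -0.91 and -0.90, and *Rad52* lies farthest to the right at 0.61.

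BRCA1 and BARD1 form the ubiquitin ligase that commits a break to recombination, and PALB2 links them to BRCA2, which acts on the resected single strand. All 5 genes of this arm had a difference below 0, and 2 of them were called lower. *Brca1* (chr11:101488764-101551955, minus strand, on GRCm38) had 17.3 in KPR- against 13.4 FPKM in KPR restored, a difference of -0.37 with an interval of -0.46 to -0.28. *Bard1* went from 8.08 to 7.67 FPKM, and its interval of -0.21 to 0.06 held 0. *Palb2* had 4.76 and 4.02 FPKM, with an interval of -0.47 to -0.03. With its shortest coding transcript the interval of *Palb2* ran from -0.60 to 0.12 and held 0. *Brca2* (chr5:150522630-150570329, plus strand) had 5.15 and 3.56 FPKM, a difference of -0.53 with an interval of -0.67 to -0.41. *Brip1*, the helicase that binds BRCA1, had 4.44 and 2.91 FPKM, a difference of -0.61 with an interval of -0.79 to -0.43. The intervals of *Brca1* and *Bard1* did not overlap, whereas those of *Brca2* and *Palb2* did. The ratio of *Brca1* to *Bard1* was 2.14 in KPR- and 1.75 in KPR restored, and that of *Brca2* to *Palb2* was 1.08 and 0.885.

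*Rad51b*, *Rad51c*, *Rad51d*, *Xrcc2* and *Xrcc3* encode related proteins that work together in small complexes during recombination. 4 of the 5 genes were within the threshold. *Rad51b* had 1.61 and 1.52 FPKM, *Rad51c* had 2.43 and 2.56 FPKM, and *Rad51d* had 6.71 and 6.84 FPKM, each with an interval that held 0. *Xrcc2* had 7.13 and 5.995 FPKM, a difference of -0.25. *Xrcc3*, the partner of *Rad51c*, had 7.43 and 4.88 FPKM, a difference of -0.61 with an interval of -0.85 to -0.37. The ratio of *Rad51c* to *Xrcc3* thus went from 0.327 to 0.524, the widest shift among the 9 pairs of partners compared. *Xrcc3* shares 4653 bases of its span with *Klc1* on the other strand, which had 39.6 and 36.7 FPKM. 12 of the 39 genes share bases of their span with a gene on the other strand. These spans include introns, and whether exons overlap was not checked. The libraries were directional, but whether the counting used strand is not given in the sources used here. Any mixing of reads within such pairs was not tested.

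The genes that help in the pairing and exchange of strands went both ways. *Rad54l*, a motor that drives strand exchange, had 10.8 in KPR- against 6.68 FPKM in KPR restored, a difference of -0.69 with an interval of -0.87 to -0.51. It shares 2780 bases of its span with *Lrrc41* on the other strand, which had 19.6 and 28.0 FPKM. Its relative *Rad54b* had 6.57 and 6.14 FPKM, and its interval of -0.31 to 0.11 held 0. *Rad51ap1*, which stimulates strand invasion, had 17.8 and 12.5 FPKM, a difference of -0.51 with an interval of -0.68 to -0.33. *Rad52* (chr6:119902698-119922828, plus strand), which anneals complementary single strands, had 7.44 in KPR- against 11.4 FPKM in KPR restored. Its difference of 0.61 had an interval of 0.38 to 0.85, with about 240 and 377 fragments. It was the 1 gene of the 39 called higher, at 153% of its KPR- level.

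End resection begins with MRE11, RAD50 and NBN, a complex that senses ends and recruits ATM, and with CtIP, encoded by *Rbbp8*. The 3 genes of the complex had differences below 0 that did not reach the threshold. *Rad50* had 20.6 and 17.6 FPKM, *Mre11a* had 18.9 and 15.4 FPKM, and *Nbn* had 9.61 and 7.43 FPKM. Their differences were -0.23, -0.30 and -0.37, with intervals below 0. The ratio of *Rad50* to *Mre11a* was 1.09 in KPR- and 1.14 in KPR restored. *Rbbp8* had 8.33 and 8.78 FPKM, with an interval of -0.05 to 0.20. Of the RecQ helicases, which take recombination intermediates apart, *Blm* had 13.0 and 10.8 FPKM, a difference of -0.27, and *Wrn* had 4.39 and 2.96 FPKM, a difference of -0.57 with an interval of -0.75 to -0.38.

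In the Fanconi pathway a core complex of several proteins attaches ubiquitin to the pair FANCD2 and FANCI, which then clamps onto DNA. The 8 core genes divided into 3 called lower and 5 that were within the threshold. The share called lower was 9.29% over genes averaging 1 FPKM or more. *Fancb* (chrX:164980592-164997272, plus strand) had 12.2 in KPR- against 6.48 FPKM in KPR restored, a difference of -0.91 with an interval of -1.09 to -0.73. *Fancm*, the motor that anchors the core complex on DNA, had 4.33 and 2.32 FPKM, a difference of -0.90 with an interval of -1.08 to -0.72. *Fanca* (chr8:123268300-123318576, minus strand) had 13.6 and 7.69 FPKM, a difference of -0.82 with an interval of -0.95 to -0.69. These 3 genes were at 53.3%, 53.6% and 56.7% of their KPR- levels. *Fanca* shares 1446 bases of its span with *Zfp276* on the other strand, which had 4.28 and 5.44 FPKM.

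The other core genes differed less. *Fancc* had 3.81 and 2.91 FPKM, with an interval of -0.66 to -0.11, and lies over 41054 bases opposite *2010111I01Rik*, at 7.45 and 4.09 FPKM. *Fancl*, which encodes the ubiquitin ligase subunit, had 4.92 and 4.43 FPKM, *Fancg* had 4.61 and 4.13 FPKM, and *Fance* had 11.5 and 10.1 FPKM. The intervals of all 3 held 0. *Fancf* was the Fanconi gene with a higher value, at 6.59 and 7.86 FPKM, with an interval of -0.02 to 0.52. *Fancg*, which encodes the direct partner of FANCA, had a difference of -0.16 beside the -0.82 of *Fanca*.

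Both genes of the ubiquitinated pair were called lower, with intervals that overlapped. *Fancd2* had 9.52 and 6.43 FPKM, a difference of -0.57 with an interval of -0.70 to -0.43. *Fanci* had 8.05 and 5.14 FPKM, a difference of -0.65 with an interval of -0.81 to -0.48. The ratio of *Fancd2* to *Fanci* was 1.18 in KPR- and 1.25 in KPR restored. *Fanci* shares 4034 bases of its span with *Polg* on the other strand, which had 20.6 and 18.6 FPKM.

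End joining starts with the Ku ring, made of the products of *Xrcc5* and *Xrcc6*, which recruits the kinase encoded by *Prkdc*. The break is then sealed by LIG4 with its cofactor XRCC4. 0 of these 5 genes passed the threshold in either direction. Of genes averaging 1 FPKM or more, 9.29% were called lower and 12.1% higher. *Xrcc6* had 49.9 in KPR- against 43.3 FPKM in KPR restored, a difference of -0.20 with an interval of -0.30 to -0.11. *Xrcc5* had 25.8 and 25.2 FPKM, with an interval of -0.15 to 0.08. *Prkdc* had 2.44 and 1.76 FPKM, a difference of -0.48 that lay just inside the threshold. *Lig4* was higher, at 4.75 and 5.87 FPKM, a difference of 0.31 with an interval of 0.14 to 0.48. *Xrcc4* had 8.46 and 9.04 FPKM, with an interval of -0.16 to 0.35. Per length, *Xrcc6* was the most abundant of the 39 transcripts and *Xrcc5* the next in both libraries, while *Prkdc*, whose product works with them, was among the scarcest.

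The apical checkpoint kinases were both called lower. *Atm* (chr9:53439149-53536740, minus strand) had 6.88 in KPR- against 3.61 FPKM in KPR restored, with about 1436 and 773 fragments. Its difference of -0.93, with an interval of -1.06 to -0.81, put it at 52.4% of its KPR- level and was the lowest of the 39. *Atr* (chr9:95857597-95951781, plus strand) had 5.76 and 4.04 FPKM, a difference of -0.51 that lay just past the threshold, with an interval of -0.65 to -0.37. The call of *Atr* was lost with a pseudocount of 1, at -0.42, and after removal of the trend with transcript length, at -0.33. The intervals of their effector kinases did not overlap. *Chek2*, the target of ATM, had 15.9 and 11.6 FPKM, a difference of -0.46 with an interval of -0.62 to -0.29. *Chek1*, the target of ATR, had 7.04 and 7.17 FPKM, and its interval of -0.15 to 0.21 held 0.

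Promoter sequences were available here for 30 of the 39 genes, from RefSeq on GRCm38.p6, each spanning 250 bases before to 50 after the start. They were searched on both strands for 3 motifs, none of whose words contains another: the E2F words TTTCCCGC, TTTCGCGC, TTTGCCGC and TTTGGCGC, the CCAAT word bound by NF-Y, and the RUNX words TGTGGT and TGCGGT. An E2F word was found for 6 of the 30 genes, against 2.6% of 27025 genes and 4.9% of the 8594 averaging 1 FPKM or more. CCAAT was found for 19 of the 30, against 41.1% and 43.3%, and a RUNX word for 8, against 25% and 24%. Of the 11 genes with a promoter that were called lower, 1 had an E2F word, 8 had CCAAT and 3 had a RUNX word. Among the other 19 these numbers were 5, 11 and 5. A match is a run of letters and not a shown binding site.

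The promoters of 6 genes are printed 5′ to 3′ with the motif words in capitals. They are *Atm* and *Fancb*, the lowest differences, *Fanca*, with a RUNX word beside 2 CCAAT words, *Brca2*, with an E2F word, *Brca1*, whose neighbour went the other way, and *Rad52*, the gene called higher, whose window holds none of the words. Their positions are chr9:53536622-53536921 (minus), chrX:164980342-164980641 (plus), chr8:123318527-123318826 (minus), chr5:150522371-150522670 (plus), chr11:101551906-101552205 (minus) and chr6:119902448-119902747 (plus).
Atm: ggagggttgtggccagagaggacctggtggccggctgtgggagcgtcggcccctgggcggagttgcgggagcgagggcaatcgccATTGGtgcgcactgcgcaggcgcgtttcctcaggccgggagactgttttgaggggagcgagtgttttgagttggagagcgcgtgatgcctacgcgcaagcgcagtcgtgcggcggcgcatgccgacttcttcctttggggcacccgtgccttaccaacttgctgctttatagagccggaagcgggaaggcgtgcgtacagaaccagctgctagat
Fancb: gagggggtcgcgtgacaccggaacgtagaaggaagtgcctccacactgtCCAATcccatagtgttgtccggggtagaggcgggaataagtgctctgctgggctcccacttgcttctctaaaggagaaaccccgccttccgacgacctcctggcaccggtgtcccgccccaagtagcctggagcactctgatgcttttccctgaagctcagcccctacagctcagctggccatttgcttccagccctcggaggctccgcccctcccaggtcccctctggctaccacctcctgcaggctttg
Fanca: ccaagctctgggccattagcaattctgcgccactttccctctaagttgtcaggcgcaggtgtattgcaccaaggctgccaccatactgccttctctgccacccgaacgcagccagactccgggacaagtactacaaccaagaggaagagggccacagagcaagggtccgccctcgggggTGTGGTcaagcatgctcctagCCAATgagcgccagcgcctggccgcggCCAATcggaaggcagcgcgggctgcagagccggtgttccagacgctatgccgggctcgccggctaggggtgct
Brca2: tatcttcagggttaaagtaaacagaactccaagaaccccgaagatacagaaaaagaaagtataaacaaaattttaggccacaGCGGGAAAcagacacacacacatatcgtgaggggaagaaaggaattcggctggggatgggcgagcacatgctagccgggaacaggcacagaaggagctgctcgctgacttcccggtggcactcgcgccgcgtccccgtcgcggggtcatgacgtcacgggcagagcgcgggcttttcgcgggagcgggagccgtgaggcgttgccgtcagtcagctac
Brca1: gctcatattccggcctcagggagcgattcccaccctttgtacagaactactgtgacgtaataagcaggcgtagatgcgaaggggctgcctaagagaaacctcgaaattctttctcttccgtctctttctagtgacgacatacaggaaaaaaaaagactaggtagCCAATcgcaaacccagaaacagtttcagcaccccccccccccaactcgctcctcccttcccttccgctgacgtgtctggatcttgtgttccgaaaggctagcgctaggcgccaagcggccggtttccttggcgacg
Rad52: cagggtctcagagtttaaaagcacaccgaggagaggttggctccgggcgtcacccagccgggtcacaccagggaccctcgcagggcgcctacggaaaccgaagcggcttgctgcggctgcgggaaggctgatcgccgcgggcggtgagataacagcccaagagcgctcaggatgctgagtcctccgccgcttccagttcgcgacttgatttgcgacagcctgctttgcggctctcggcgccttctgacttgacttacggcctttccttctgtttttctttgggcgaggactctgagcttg

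Several repair genes lie head to head with another gene, so that both are read outwards from the same stretch of DNA. Among transcripts with a RefSeq counterpart, 16 of the 39 had such a neighbour starting within 1000 bases, and 14 of the neighbours averaged 1 FPKM or more. All 14 repair genes of these pairs had a difference below 0, of which 8 were called lower. Left out by this filter on the neighbour were *Rad51c*, with a difference of 0.07, and *Atr*, at -0.51. Of the 14 neighbours, 8 had a difference below 0 and 6 above 0, with a median of -0.06. Over all genes averaging 1 FPKM or more, 49.0% had a difference below 0. 1 neighbour was called lower and 2 higher, where 9.29% and 12.1% of those genes were, so the neighbours were near these shares. *Mcm4*, a subunit of the replicative helicase that starts 489 bases from *Prkdc*, was the neighbour called lower.

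*Atm* and *Npat* start 307 bases apart. NPAT switches on histone genes in S phase, and its gene had 7.32 and 6.94 FPKM, a difference of -0.08 with an interval of -0.21 to 0.06 beside the -0.93 of *Atm*. *Fancb* and *Mospd2* start 217 bases apart, and *Mospd2* had 17.8 and 15.8 FPKM, a difference of -0.17. *Emc3* starts 30 bases from *Fancd2* and had 62.2 and 60.3 FPKM. *Pomgnt1*, 155 bases from *Rad54l*, had 25.7 and 23.6 FPKM. In these 4 pairs the repair gene was called lower and the neighbour differed by between -0.17 and -0.04.

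In 6 pairs the neighbour went the other way. *Nbr1*, which encodes an autophagy receptor and starts 270 bases from *Brca1*, had 26.6 in KPR- against 38.5 FPKM in KPR restored, a difference of 0.53 with an interval of 0.46 to 0.60. *Hscb*, 206 bases from *Chek2* and active in iron-sulfur cluster assembly, had 9.64 and 14.4 FPKM, a difference of 0.58. *Dctn5*, 95 bases from *Palb2*, had 34.4 and 40.8 FPKM, and *Zfyve26*, 978 bases from *Rad51b*, had 5.12 and 6.63 FPKM. *D6Wsu163e*, beside *Rad51ap1*, had 6.60 and 7.49 FPKM and *Purg*, beside *Wrn*, had 2.65 and 2.69 FPKM, both with an interval that held 0. The pairs that moved nearly as one were *Prkdc* with *Mcm4*, at -0.48 and -0.51, *Xrcc6* with *Desi1*, at -0.20 and -0.24, and *Brip1* with the noncoding *Brip1os*, at -0.61 and -0.49. The annotated gene spans of *Xrcc6* and *Desi1* share 41340 bases on opposite strands, although the starts used here lie 206 bases apart. Whether their exons overlap was not checked.

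**Figure D3:**
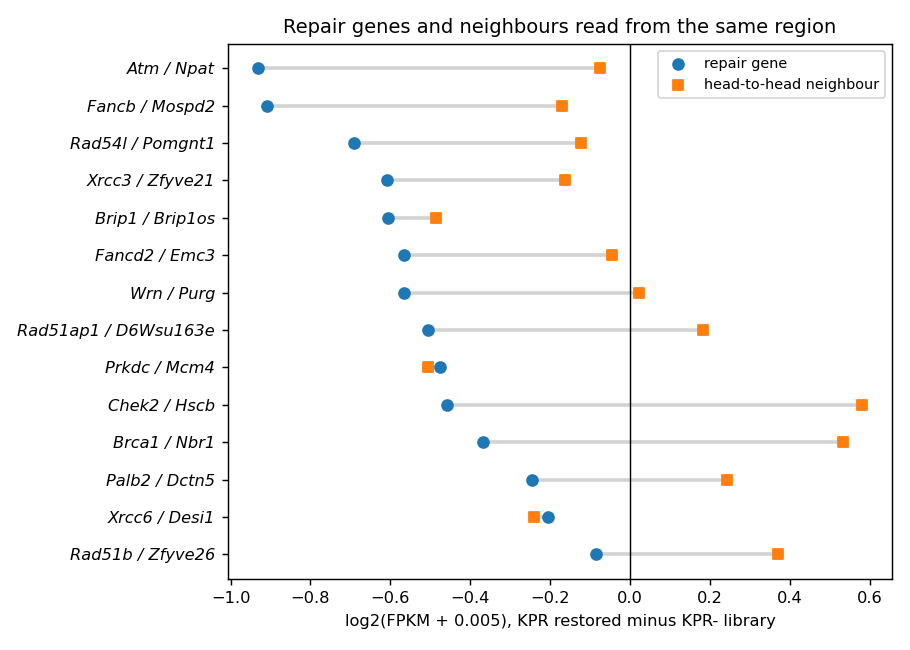
Difference in log2(FPKM + 0.005) between KPR restored and KPR- for 14 repair genes (circles) and the gene that starts within 1000 bases on the other strand (squares), joined by a line for each pair. Pairs whose neighbour averaged under 1 FPKM are left out. All circles lie left of 0, whereas 6 squares lie to the right of it, including those of *Nbr1* at 0.53 and *Hscb* at 0.58.

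Many of these genes have long transcripts, and over all genes long transcripts had lower differences than short ones. The difference had a Spearman correlation with transcript length of -0.42 across the 39 genes and of -0.21 across 11177 genes averaging 1 FPKM or more, with Pearson correlations on log10 length of -0.45 and -0.07. These correlations are across genes of the same 2 libraries, which are not independent replicates. Of 14 members with a transcript of 5000 bases or more, 7 were called lower, where 15.3% of all such genes averaging 1 FPKM or more were. Of 25 members with shorter transcripts, 6 were called lower, where 7.79% were. For transcripts under 2000 bases, 2 of 5 members lay under the median of all genes, and the medians were 0.10 for the members and 0.09 for the genes. In the bin from 2000 to 3000 bases all 10 members lay under the median of the 2483 genes in that bin, 0.07, and had a median of -0.20. From 3000 to 5000 and from 5000 to 8000 bases, 7 of 10 members lay under it in each bin. For transcripts of 8000 bases or more (*Brca2*, *Prkdc*, *Atm* and *Atr*), the 4 members had a median of -0.52 where 522 genes had -0.23.

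After the trend with length had been taken off, the median of the 39 genes was -0.24 and 9 were lower by 0.5 or more. *Fancb*, at -0.96, *Fanca*, at -0.78, *Rad54l*, at -0.73, *Fancm*, at -0.73, and *Atm*, at -0.72, stayed past the threshold, as did *Xrcc3*, *Fanci* and *Rad51ap1*, and *Chek2* passed it at -0.53. The difference of *Brca2* became -0.30, that of *Atr* -0.33, that of *Wrn* -0.44, that of *Brip1* -0.46 and that of *Fancd2* -0.47, all inside it.

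**Figure D4:**
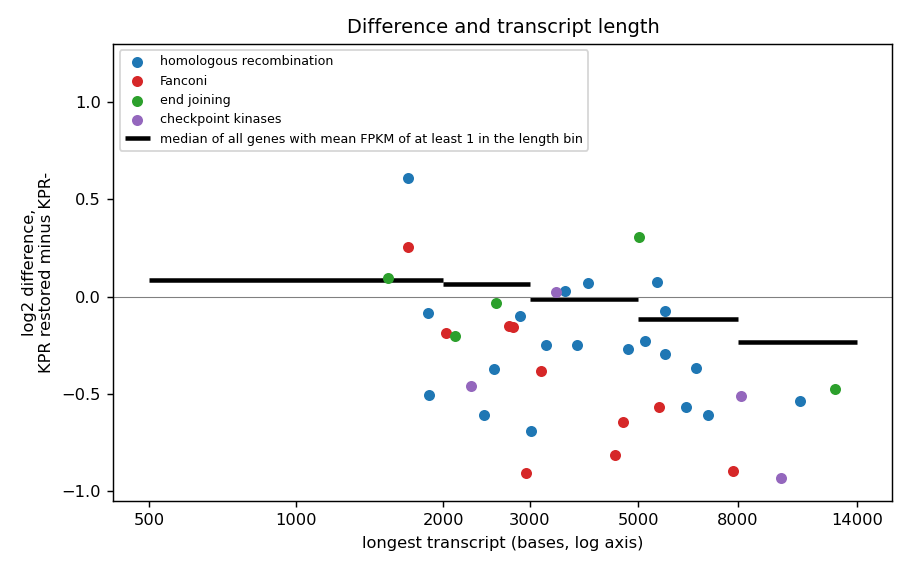
Difference in log2(FPKM + 0.005) of the 39 genes, coloured by pathway, against the length of the longest transcript in bases on a log axis, with black lines for the median of all genes averaging 1 FPKM or more in 5 bins of length (the outer bins are open-ended). The medians step down from 0.09 for transcripts under 2000 bases to -0.23 from 8000 bases, and most points lie under them.

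A further 79 genes of break and crosslink repair were described in the same way. 12 were lower and 2 were higher by 0.5 or more, where 12.9% and 13.8% of all genes were. Of genes averaging 1 FPKM or more, as 78 of the 79 did, 9.29% were lower and 12.1% higher. The 12 include *Dmc1*, at 0.0279 and 0 FPKM with about 1 and 0 fragments. The median of the 79 was -0.11. *Parp1*, a sensor of strand breaks, had 59.6 and 36.1 FPKM, a difference of -0.72, and *H2afx*, the histone that is phosphorylated around breaks, had 93.3 and 58.6 FPKM, a difference of -0.67. *Aptx*, which encodes an enzyme that cleans the ends of broken strands, had 1.16 and 2.19 FPKM, a difference of 0.91.

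Recombination and Fanconi genes are read mostly in dividing cells, so lists of S phase and mitosis genes were set beside them. Of 40 S phase genes 16 were lower by 0.5 or more and 0 higher, with a median of -0.42. The shares over genes averaging 1 FPKM or more were 9.29% lower and 12.1% higher. *Dna2* had 6.67 and 2.62 FPKM and *Pola1* 22.8 and 10.9 FPKM, while *Gins4* had 39.7 and 42.6 FPKM and *Rfc4* 26.8 and 26.9 FPKM. Of 25 mitosis genes 9 were lower and 0 higher, beside the same shares, with a median of -0.34. The part of a smaller share of cycling cells in the values of the repair genes was not tested. The 32 genes of excision and mismatch repair had a median of 0.06, with 4 lower and 4 higher, near the 12.9% and 13.8% of all genes. 31 of the 32 averaged 1 FPKM or more, where the shares were 9.29% and 12.1%.

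**Figure D5:**
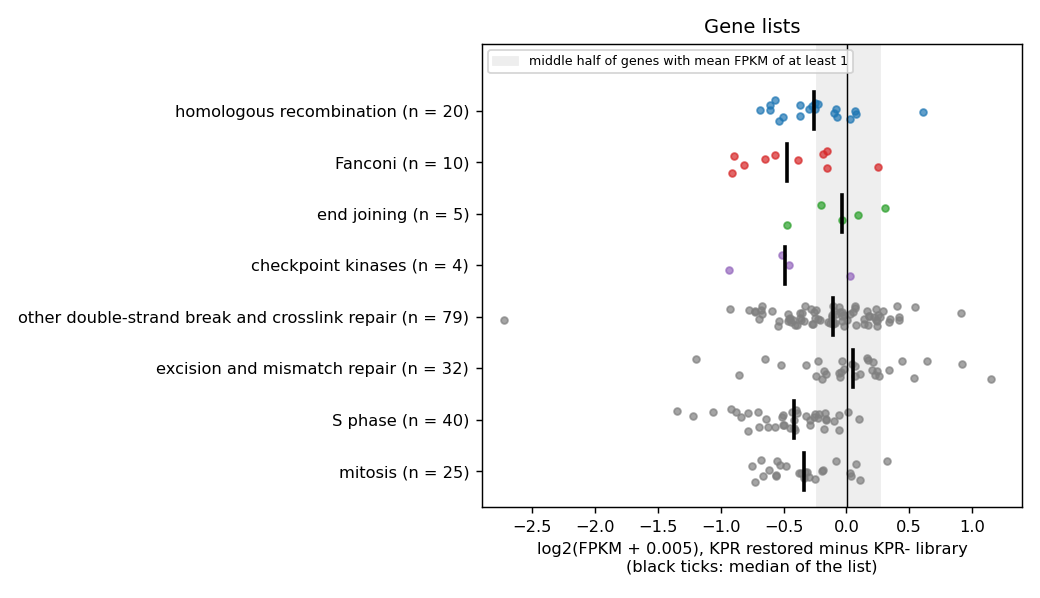
Difference in log2(FPKM + 0.005) of each gene in the 4 pathways of this set (coloured) and in 4 other lists (grey), with the median of each list as a black tick and the range between the quartiles of genes averaging 1 FPKM or more, -0.23 to 0.27, shaded. The ticks of the Fanconi genes, the checkpoint kinases and the S phase genes lie at -0.47, -0.48 and -0.42, and those of end joining and of excision and mismatch repair lie near 0.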

How the data were processed

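mRNA sequencing data of 1 KPR- and 1 KPR restored library were used. Per the labels and the paper's methods, poly(A) RNA was made into directional libraries and sequenced as paired ends. Adapters and low-quality bases were trimmed by the authors, reads were mapped using TopHat to mm10, and the deposited FPKM values were estimated using Cufflinks, with versions and annotation not given in the sources used here. The paper also names EdgeR, but no read counts were used here.

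The 39 members and all lists were chosen with earlier results of these data known. Of 23183 symbols, 22156 matched GENCODE M21 (GRCm38) directly and 664 through an older symbol. Depth and a mean fragment length of 213 bases were fitted to low FPKM values of genes with 1 transcript, and the longest transcript with a RefSeq counterpart was used, so fragment numbers are upper estimates for the 16 members with several lengths. The scripts were tested on simulated data. No p-value was computed. All members are given. Of each other repair or cell cycle list, the 2 genes that changed most each way on log2(FPKM + 1) are named, with head-to-head neighbours averaging 1 FPKM or more and the study's genes, except for a few items that are not reported here. Alternatives were other pseudocounts, filters, scalings, a threshold of 1, the length trend and the shortest coding transcript. The software was matplotlib 3.10.9, statsmodels 0.14.6, scipy 1.17.1, pandas 2.3.3 and numpy 2.4.6 under Python 3.11.15.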

Additional observations from a re-analysis of the deposited data

How the results depend on the processing

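The count of 13 lower members became 8 with a pseudocount of 1, 8 among the 27 members averaging 5 FPKM or more, and 0 at a threshold of 1. With the pseudocount of 1, the calls of *Brca2* (-0.43), *Brip1* (-0.47), *Rad51ap1* (-0.47), *Wrn* (-0.44) and *Atr* (-0.42) were lost. The 1 higher member became 0 at a threshold of 1. These alternatives shrink small values, remove genes or ask for a larger fold. Under the scalings to the same total, to the same upper quartile and to the median gene, 13 to 14 members were lower and 1 was higher. The median of the members ran from -0.30 to -0.24 over all alternatives, and that of end joining from -0.10 to 0.03, changing sign among genes averaging 5 FPKM or more. With the shortest coding transcript, 23 intervals lay below 0 in place of 24, and that of *Palb2* then held 0. The differences of single members left their counting interval for 6 of 39 members with the length trend removed and for 2 of 39 with a pseudocount of 1, and for 0 of 39 with a pseudocount of 0.1 or under each scaling. No called member changed sign under these alternatives. No paired analysis was possible because each condition has 1 library. Depth limits *Rad51b* most, with about 56 fragments in KPR restored.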

Other observations

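Of the 32 genes of excision and mismatch repair, 4 were lower and 4 were higher by 0.5 or more, shares near those over all genes (12.9% and 13.8%). Over genes averaging 1 FPKM or more, 9.29% were lower and 12.1% higher. The genes named are the extremes of the list each way on log2(FPKM + 1). The 4 higher also include *Neil2*, at 0.0804 and 0.156 FPKM with about 3 and 6 fragments, a difference of 0.92. *Ung*, the glycosylase that removes uracil from DNA, had 10.4 in KPR- against 4.54 FPKM in KPR restored, a difference of -1.20, and *Msh3*, a mismatch recognition gene, had 7.24 and 4.00 FPKM, a difference of -0.86. *Neil1*, a glycosylase for oxidized bases, had 2.90 and 6.45 FPKM, a difference of 1.15, and *Xpa*, which verifies damage in nucleotide excision repair, had 5.74 and 8.97 FPKM, a difference of 0.64. Counting intervals lay below 0 for 8 and above 0 for 10 of the 31 genes of this list with at least 10 estimated fragments, also near the shares over all genes (29.7% and 30.5%).

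Among the mitosis genes, *Mki67* had 101 and 60.1 FPKM and *Top2a* had 194 and 118 FPKM, whereas *Ndc80* had 36.6 and 45.7 FPKM and *Ube2c* had 230 and 248 FPKM. The antisense neighbour *Fancd2os* had 0.715 and 0.349 FPKM beside *Fancd2*.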
